A study of Mus musculus with 12 samples.

Results

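The regions described here are the places where ARNT was found at 4% O2 in N1E115 cells, in both replicates, without a reproducible HIF1A region at 4% O2 and without a reproducible ARNT region at 20% O2. A reproducible region is a merged stretch in which a peak of 1 replicate list overlaps a peak of the other list of the same antibody and oxygen level by at least 1 bp. Of 6893 ARNT 4% O2 regions, 968 met the rule (14%). The regions were chosen by the peak calls of the ARNT and HIF1A lists at 4% O2 and the ARNT lists at 20% O2, so their number, their ARNT scores, their HIF1A calls at 4% O2 and their ARNT calls at 20% O2 are a description. Few of them lacked a HIF1A peak at 4% O2. Of the 968, 138 (14.3%) held no peak of either HIF1A 4% O2 list, 815 (84.2%) held a peak of 1 list, and 15 held peaks of both lists at separate positions. The 138 are called regions without any HIF1A peak below, and the 815 are reported apart from them. That name refers to the 4% O2 lists only, since 8 of the 138 held a peak of HIF1A 20% O2 replicate 2.

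N1E115 is an established mouse neuroblastoma line, which the labels call NOS1+ after the neuronal nitric oxide synthase. Cells were kept for 3 days at 4% or 20% O2 in 5% CO2 at ambient pressure, and chromatin was immunoprecipitated with an antibody to HIF1A or to ARNT. Each antibody and oxygen level gave 2 ChIP samples, each called against an input of the same oxygen level, and no genotype or drug differed between them. The labels do not say whether replicates were separate cultures, and everything here comes from 1 cell line. The files hold peak positions and scores and no expression, so the labelled cell type could not be checked against marker genes.

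ARNT, also called HIF1B, is a basic helix-loop-helix PAS protein that is present at all oxygen levels and binds DNA as a dimer. Its best known partners are the HIF alpha subunits, which are degraded when oxygen is plentiful and accumulate when it is scarce, and the HIF dimer reads the hypoxia response element cores ACGTG and GCGTG. ARNT also pairs with AHR, the receptor for dioxin-like ligands, and with SIM and NPAS proteins, and it can form homodimers that bind the E-box CACGTG. HIF2A, encoded by Epas1, uses the same DNA core as HIF1A, and neither it nor any other partner was immunoprecipitated here.

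The sequences below show what lay under these regions at promoters. The first 5 are the highest-ranked regions without any HIF1A peak that fall in a RefSeq promoter window (GRCm38.p6, the build called mm10), the next 3 the highest with a HIF1A peak in 1 list, and the last 2 the highest regions bound by both proteins, shown for contrast. Each is the part of the region that lies within the 250 bases upstream of an annotated start, so that region bases outside that window are not shown, read 5′ to 3′ on the gene's strand. Capitals mark ACGTG (or CACGT, the same site on the other strand) and GTTGCC (or GGCAAC), an arm of the X-box, the element that RFX factors bind at ciliary genes.

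Celf5 lies on chr10:81472982-81473113 (minus strand), Tctn2 on chr5:124598628-124598748 (plus), Cops3 on chr11:59839812-59839943 (minus), Lrrc73 on chr17:46253915-46253991 (plus) and Golph3l on chr3:95588684-95588933 (plus).
Celf5: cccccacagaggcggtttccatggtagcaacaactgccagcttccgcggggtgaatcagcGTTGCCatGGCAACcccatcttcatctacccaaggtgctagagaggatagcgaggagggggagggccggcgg
Tctn2: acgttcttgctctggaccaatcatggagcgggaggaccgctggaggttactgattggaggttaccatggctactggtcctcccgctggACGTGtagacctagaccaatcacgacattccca
Cops3: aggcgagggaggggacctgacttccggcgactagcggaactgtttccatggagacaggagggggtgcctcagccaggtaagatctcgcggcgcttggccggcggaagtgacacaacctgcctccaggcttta
Lrrc73: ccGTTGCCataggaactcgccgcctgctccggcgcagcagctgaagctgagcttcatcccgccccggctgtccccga
Golph3l: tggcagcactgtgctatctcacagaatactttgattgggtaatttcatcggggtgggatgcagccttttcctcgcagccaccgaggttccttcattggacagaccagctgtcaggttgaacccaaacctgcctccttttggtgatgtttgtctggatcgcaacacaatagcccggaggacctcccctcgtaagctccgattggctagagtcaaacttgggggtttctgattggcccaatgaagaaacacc

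Hsph1 lies on chr5:149636316-149636500 (minus), Hmgcs1 on chr13:119690101-119690350 (plus) and Kif22 on chr7:127042423-127042570 (minus).
Hsph1: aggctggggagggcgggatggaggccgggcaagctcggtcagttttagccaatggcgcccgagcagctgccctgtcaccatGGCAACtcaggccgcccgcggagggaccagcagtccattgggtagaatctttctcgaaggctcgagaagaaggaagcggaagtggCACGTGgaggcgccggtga
Hmgcs1: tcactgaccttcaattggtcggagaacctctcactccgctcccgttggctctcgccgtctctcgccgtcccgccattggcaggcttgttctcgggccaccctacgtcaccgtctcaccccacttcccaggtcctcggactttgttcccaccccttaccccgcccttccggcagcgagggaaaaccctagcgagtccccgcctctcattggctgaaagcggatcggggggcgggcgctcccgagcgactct
Kif22: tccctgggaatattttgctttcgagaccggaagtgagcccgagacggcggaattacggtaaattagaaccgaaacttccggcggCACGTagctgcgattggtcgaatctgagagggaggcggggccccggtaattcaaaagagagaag

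The co-bound stretches lie at Pdk1, which encodes a pyruvate dehydrogenase kinase, on chr2:71872974-71873223 (plus), and at Bnip3, a mitophagy receptor gene, on chr7:138909507-138909756 (minus).
Pdk1: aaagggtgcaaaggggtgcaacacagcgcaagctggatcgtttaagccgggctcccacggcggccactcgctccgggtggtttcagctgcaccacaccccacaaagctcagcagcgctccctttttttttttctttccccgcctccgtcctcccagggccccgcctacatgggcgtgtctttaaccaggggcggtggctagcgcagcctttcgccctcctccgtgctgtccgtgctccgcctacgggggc
Bnip3: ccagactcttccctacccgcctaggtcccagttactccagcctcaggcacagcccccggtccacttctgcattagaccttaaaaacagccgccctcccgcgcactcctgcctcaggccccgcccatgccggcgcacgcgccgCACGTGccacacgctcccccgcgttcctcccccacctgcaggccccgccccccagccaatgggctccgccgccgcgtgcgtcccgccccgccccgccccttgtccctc

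Among the 5 stretches without any HIF1A peak, Tctn2 alone held ACGTG, while Celf5 held GTTGCC and its reverse complement 2 bases apart and Lrrc73 held it near its upstream end. The Hsph1 and Bnip3 stretches each held CACGTG, which counts as a match on both strands, and Hsph1 also held an X-box arm, while Kif22 held CACGT. The Golph3l, Cops3, Hmgcs1 and Pdk1 stretches held neither marked motif in the printed letters. GCGTG, the other hypoxia response element core, was not marked. The printed Pdk1 and Bnip3 stretches both held GCGTG, and no other printed stretch held it on either strand.

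HIF1A at 4% O2 split these regions very unevenly between its replicates. Replicate 1 of HIF1A had a peak in 814 of the 968 regions (84.1%, 95% Wilson interval 81.7 to 86.3), and for 799 of them replicate 2 had none. Replicate 2 alone had a peak in 16 regions. The HIF1A lists differ in length and form: replicate 1 held 42701 intervals with a median width of 182 bp, and replicate 2 held 13655 positions of 1 bp. Over all 6893 ARNT regions, 6700 held a HIF1A replicate 1 peak and 176 (2.55%) held no HIF1A peak in either list. Per the sample names and headers in the files, HIF1A replicate 1 and both ARNT 4% O2 samples were called against the same input, and HIF1A replicate 1 was read on the same lane as ARNT replicate 1; the part of this in the uneven split was not tested.

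**Figure D1:**
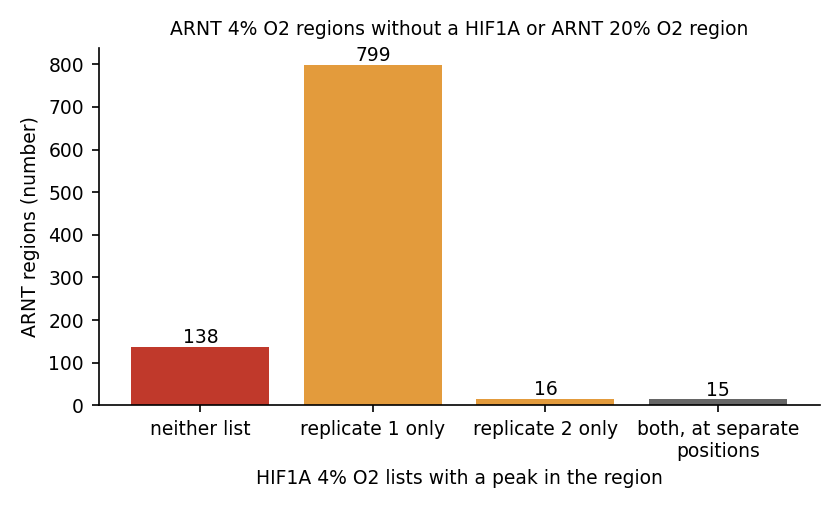
The number of ARNT 4% O2 regions (vertical axis) by which HIF1A 4% O2 lists had a peak in them; bars are counts of regions. The bar for replicate 1 only holds 799 of the 968 regions, and 138 held no HIF1A peak.

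Where the HIF1A replicate 1 peak was present in these regions, it ranked in the middle of its own list. Such a peak overlaps the ARNT region by definition, which by itself keeps the distance between their centres small. The score is the authors' own value for a peak, and no header names its scale, so it is used here as a percentile rank within its list, with 100 for the highest. In the 799 regions with a peak of HIF1A replicate 1 only, the HIF1A peak had a median rank of 60.3 (quartiles 40.9 and 73.5) and its centre was a median of 24 bp from the ARNT region's centre. In the 5390 ARNT regions that did overlap a HIF1A 4% O2 region and no ARNT 20% O2 region, called co-bound here, the HIF1A replicate 1 peak had a median rank of 91.4 and a median offset of 32.5 bp.

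The ARNT peaks of these regions ranked lower than those of co-bound regions in both ARNT lists. In ARNT replicate 1, median ranks were 51.1 without any HIF1A peak, 48.6 with a peak in 1 list and 77.8 in co-bound regions. ARNT replicate 2 gave 36.7, 27.6 and 66.8 in the same order. Median scores in replicates 1 and 2 were 10.9 and 10.9 without any HIF1A peak, 10.3 and 9.02 with a peak in 1 list, and 18.2 and 24.2 in co-bound regions. Median widths were 174.5, 197 and 275 bp. The ranges overlapped widely, since the middle 80% of ranks in replicate 1 ran from 12.6 to 88.5 without any HIF1A peak and from 27.3 to 97.2 in co-bound regions. These ARNT lists are part of the rule, and the ranks are a description.

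**Figure D2:**
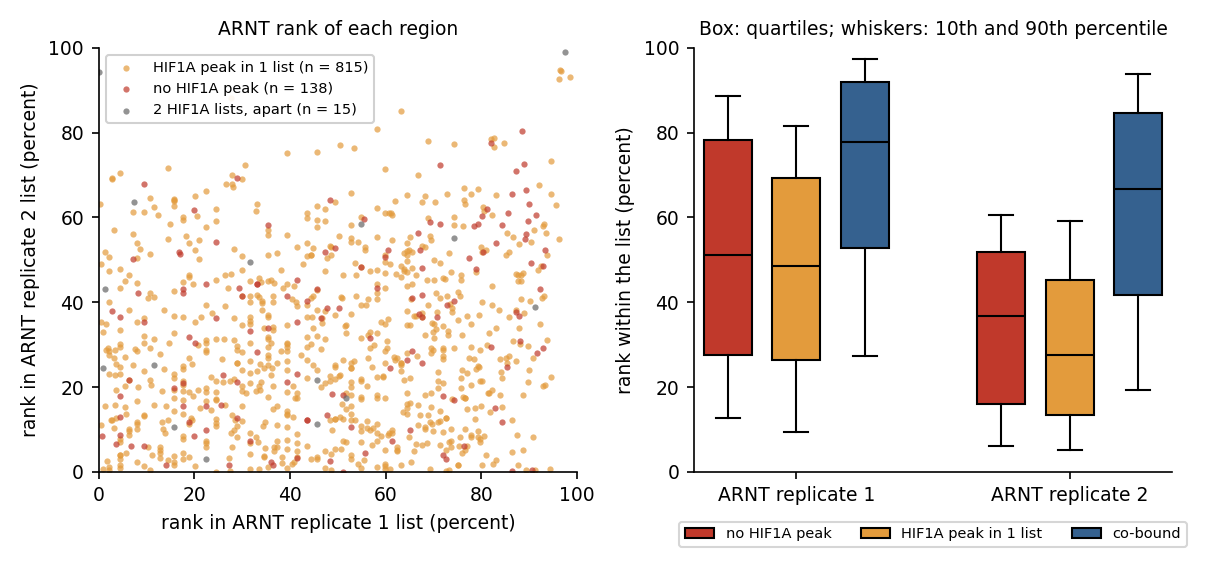
Left, the percentile rank of each of the 968 regions in the ARNT 4% O2 replicate 1 list (horizontal) and replicate 2 list (vertical), coloured by HIF1A 4% O2 peaks; right, the same ranks by class beside co-bound regions, with boxes for the quartiles and whiskers for the 10th and 90th percentiles. Co-bound regions sit highest in both lists, with medians of 77.8 and 66.8.

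At the edge of the rule, distance to the nearest HIF1A 4% O2 region was small for some members. The nearest members lay 37 bp (Hsph1), 49 bp (Parvg) and 51 bp (Abhd14a) from a HIF1A region, and the ARNT regions kept out by the shortest overlaps, of 9, 27 and 35 bp, lay at Ccni, Pecam1 and Nono. Of the 968 members 83 lay within 500 bp of a HIF1A region, 77 of them with a HIF1A peak in 1 list and 4 without any. Another member lay within 5 kb of 26 of the 968.

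The 15 regions without any HIF1A peak that ranked highest had mean ranks of 71.7 to 84.4, and 6 of them lay within 1 kb of a gene end. The highest, chr3:89227388-89227569, was 547 bp from an end of Thbs3, which encodes the matrix protein thrombospondin 3, with scores of 26.3 in ARNT replicate 1 and 42.9 in replicate 2 and a mean rank of 84.4. A pair followed inside Pnmal1, a gene of the PNMA family, on chr7:16957110-16957254 and chr7:16959630-16959765, with mean ranks of 80.7 and 77.9. These lay 23815, 8625 and 11145 bp from the nearest HIF1A 4% O2 region.

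Several of the next regions lay at genes of the cilium, the microtubule-based organelle that projects from the cell surface. Wdr66, which encodes an axonemal protein, had a region of mean rank 79.7 on chr5:123251972-123252180, 247 bp from an end of the gene, with scores of 20.7 and 36.5. Dync2li1, a light intermediate chain of the dynein motor that returns cargo from the ciliary tip, had a region of mean rank 76.0 over an end of the gene on chr17:84626383-84626525, with scores of 24.0 and 23.2. Tctn2, a component of the ciliary transition zone, had a region of mean rank 76.0 on chr5:124598628-124598792, with scores of 31.4 and 19.8. Cfap54, of the axoneme's central apparatus, had a region of mean rank 71.7 inside the gene, 1757 bp from an end, with scores of 20.2 and 20.8. The nearest HIF1A 4% O2 region was 57903 bp or more away for each of these 4 genes.

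The remaining regions of the 15 lay at genes of several kinds. Polr2a, the largest subunit of RNA polymerase II, had a region 373 bp from an end on chr11:69759006-69759142, with scores of 35.8 and 15.7. Cops3, which encodes a subunit of the COP9 signalosome, had a region with scores of 27.5 and 16.8. It lay inside the outer limits of the gene, 45 to 176 bases upstream of an annotated start. That region held a peak of HIF1A 20% O2 replicate 2, as did the Lrrc73 region printed above. Celf5, an RNA-binding protein of neurons, and Tmem108 and Elfn2 had regions inside the gene with mean ranks of 76.6, 79.1 and 73.2. The 15 also took in a region 15011 bp from H13, the signal peptide peptidase gene, and 1 region on the mitochondrial chromosome (M:6145-6283, scores of 27.6 and 17.4). Of these 15 regions, 14 also held a peak of ARNT 20% O2 replicate 1, all but that at Wdr66, and none held a peak of ARNT 20% O2 replicate 2.

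Among regions with a HIF1A peak in 1 list, 3 of the 4 highest lay far from genes. These were chr14:19417782-19417953, with ARNT scores of 112 and 125 and 115747 bp from Gm2244, and chr9:3024089-3024242 and chr9:3001353-3001471, 310989 and 333760 bp from Alkbh8, with scores of 55.4 and 161 and of 57.5 and 155. All 3 also held a peak of HIF1A 20% O2 replicate 2. The highest of all 968, chr2:98666578-98667293, held peaks of both HIF1A 4% O2 lists at separate positions and peaks of both HIF1A 20% O2 lists and of ARNT 20% O2 replicate 1, with ARNT 4% O2 scores of 72.6 and 566, 1034910 bp from Lrrc4c. Input read depth at these places is not in the lists, and its part in their scores was not tested.

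Bnip3l encodes NIX, a mitophagy receptor induced by hypoxia, and had the highest region at a gene end. The region, chr14:67008723-67009236, had ARNT scores of 53.3 and 120 and a HIF1A replicate 1 peak of rank 98.1, and a HIF1A 4% O2 region began or ended 59 bp away. Slit3, an axon guidance ligand gene, had a region inside the gene with scores of 22.5 and 37.0, and P4htm, the transmembrane prolyl 4-hydroxylase gene, had a region with scores of 20.9 and 38.96. Sema4b, a semaphorin gene, had a region 217 bp from an end with scores of 20.7 and 38.7. Nhsl2, Tppp3, which encodes a tubulin-binding protein, and Ppm1l, which encodes a protein phosphatase, completed the 10 highest of this class, with mean ranks of 83.9, 80.1 and 79.8.

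At gene ends the 10 highest also took in Hsph1, Hmgcs1, Cars and Kif22. Hsph1, a heat shock protein of the HSP110 family, had ARNT scores of 16.7 and 36.2. Hmgcs1, which makes HMG-CoA for sterol synthesis, had scores of 35.5 and 18.5 and a HIF1A replicate 1 peak of rank 23.0. Cars, the cysteinyl-tRNA synthetase gene, had scores of 53.6 and 16.8, and Kif22, a chromosome-bound kinesin gene, had scores of 35.2 and 18.4. ARNT replicate 1 ranked Hmgcs1, Cars and Kif22 higher than replicate 2 did, and the reverse was so for Hsph1.

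The HIF1A lists at 20% O2 played no role in the rule, and they had fewer peaks in these regions than in co-bound regions. The classes were set by calls of the same protein at 4% O2, so their order here is a description and no independent readout. HIF1A replicate 2 holds 1 bp positions at both oxygen levels, and the part of this in the shares was not tested. HIF1A 20% O2 replicate 2 had a peak in 8 of 138 regions without any HIF1A peak at 4% O2 (5.80%, 2.97 to 11.02). It had a peak in 192 of 815 with a peak in 1 HIF1A 4% O2 list (23.6%, 20.8 to 26.6) and in 2952 of 5390 co-bound regions (54.8%, 53.4 to 56.1), against 51.1% of all ARNT regions. HIF1A 20% O2 replicate 1 had a peak in 0 of 138, which allows a share of up to 2.17% (3 counts of the total; the upper Wilson limit is 2.71%), in 27 of 815 (3.31%) and in 523 of 5390 (9.70%), against 11.2% of all ARNT regions. Both replicates gave the same order of the 3 classes, and the intervals of neighbouring classes did not overlap for replicate 2. At ARNT ranks between 50 and 75 the replicate 2 shares were 4 of 44 (9.09%, 3.59 to 21.2), 23.9% (18.5 to 30.2) and 49.0%. The order was the same there, but the intervals of the first pair overlapped. At 25 to 50 the shares were 5.08%, 24.03% and 37.1%, and no intervals overlapped. Below 25 they were 1 of 27, 20.97% (15.7 to 27.4) and 26.8% (21.9 to 32.2), and the intervals of neighbouring classes overlapped. At 75 and above they were 0 of 8, 6 of 16 and 72.7%, and the intervals of the first pair overlapped. Intervals here count regions only and hold no spread between samples; each value comes from 1 list, and no test between samples was made. The share of members with a HIF1A 20% O2 peak in either list, 21.4%, was 5.84% without HIF1A 4% O2 replicate 2 and 9.63% without ARNT 4% O2 replicate 1.

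The ARNT 20% O2 lists are part of the rule, so their peaks in these regions are a description. No class holds a reproducible ARNT 20% O2 region, by the rule. A peak of ARNT 20% O2 replicate 1, with or without a replicate 2 peak elsewhere in the region, was present in 55 of 138 regions without any HIF1A peak (39.9%, 32.1 to 48.2). The counts were 142 of 815 with a peak in 1 list (17.4%, 14.97 to 20.2) and 854 of 5390 co-bound regions (15.8%, 14.9 to 16.8), which passed the same ARNT 20% O2 rule. All ARNT regions, at 23%, include those with a reproducible ARNT 20% O2 region. At ranks between 50 and 75 the shares were 59.1%, 26.9% and 16.8%. ARNT 20% O2 replicate 2, a list of 1808 peaks against 7252 in replicate 1, had a peak in 0, 8 and 23 regions of the 3 classes. Absence at 20% O2 therefore rests on the shorter list for 55 of the 138 regions, and 83 held no ARNT 20% O2 peak in either list. ARNT 20% O2 replicate 1 and ARNT 4% O2 replicate 1 were read on the same lane, per the file headers, whose part in this share was not tested.

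**Figure D3:**
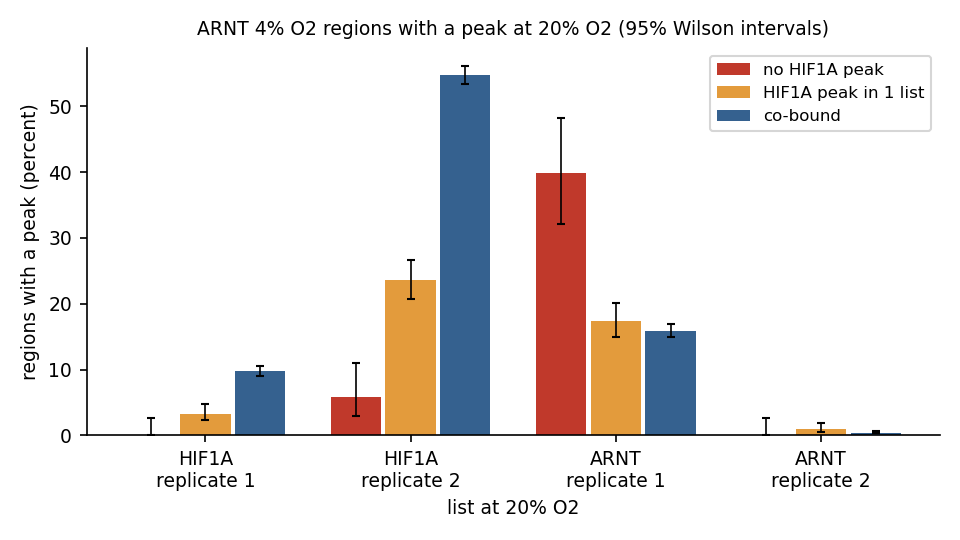
The share of ARNT 4% O2 regions with a peak in each list at 20% O2 (vertical axis, percent), for regions without any HIF1A 4% O2 peak, regions with a peak in 1 HIF1A list and co-bound regions; error bars are 95% Wilson intervals over regions. HIF1A replicate 2 had a peak in 5.80%, 23.6% and 54.8% of the 3 classes, and ARNT replicate 1 in 39.9%, 17.4% and 15.8%.

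These regions lay near gene ends more often than co-bound regions did. An end of a protein-coding gene, either its start or its far end since the gene table holds no strand, was within 1 kb of 85 of 137 regions without any HIF1A peak (62.0%, 53.7 to 69.7) and 461 of 815 with a peak in 1 list (56.6%, 53.1 to 59.9). The share was 2087 of 5390 in co-bound regions (38.7%, 37.4 to 40.03) and 42.8% in all ARNT 4% O2 regions. Regions between genes and over 1 kb from an end made up 11.7% and 16.4% of the same classes and 28.8% of co-bound regions. Ends are the outer limits of a gene, so a region at an annotated start far inside them, as at Cops3 and Celf5, was not counted as near an end. The mitochondrial region is left out of these counts, since its chromosome has no gene table.

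The difference in position was also seen at matched ARNT rank. At mean ranks of 25 to 50, 55.9% of regions without any HIF1A peak, 59.5% with a peak in 1 list and 40.1% of co-bound regions lay within 1 kb of a gene end. At 50 to 75 the shares were 65.1%, 60.7% and 37.9%, and below 25 they were 74.1%, 47.3% and 38.7%, where the intervals of the last pair overlapped. At 75 and above the classes could not be told apart, since they held 8 and 16 regions, of which 4 and 6 lay near an end, with intervals of 21.5 to 78.5% and 18.5 to 61.4%. The share over all members was 57.4%, and it was 57.6% without the 5 highest-ranked regions. It was 46.5% when ARNT 4% O2 replicate 2 alone gave the ARNT regions and 21.9% when replicate 1 alone did.

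**Figure D4:**
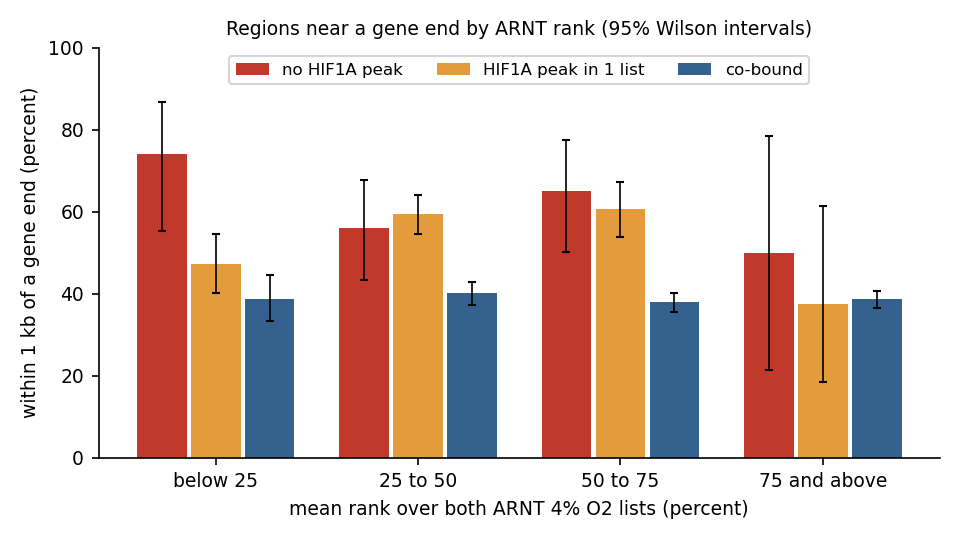
The share of regions within 1 kb of a gene end (vertical axis, percent) by mean rank over both ARNT 4% O2 lists, for the same 3 classes; error bars are 95% Wilson intervals over regions. Co-bound regions stay between 37.9% and 40.1% in every band, and the other classes lie above them below a rank of 75.

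A protein-coding gene was counted as having a member when the region lay inside it or within 5 kb of its start, or of either end where the start is not in the RefSeq promoter table. Of 21631 genes, 970 (4.48%) had a member and 143 (0.661%) had a region without any HIF1A peak. Lack of HIF1A in the region did not mean lack of HIF1A at the gene: 365 of the 970 genes (37.6%) also had a HIF1A 4% O2 region, against 27.7% of all genes. A co-bound region was present at 233 of the 970 (24.0%, 21.4 to 26.8), against 17.0% of all genes. Among the 143 genes the count with a HIF1A 4% O2 region was 49 (34.3%, 27.0 to 42.4), an interval that holds the 27.7% of all genes. Genes with a member numbered 158 without HIF1A 4% O2 replicate 2, 2463 without ARNT 4% O2 replicate 1 and 5788 without ARNT 4% O2 replicate 2.

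Among genes for ARNT, its partners and their targets, the counts with a member were small. In the bHLH-PAS family, 2 of 22 genes did (9.09%, against 4.48% of all genes): Per2, a clock repressor with a PAS domain, and Ahrr, the repressor of AHR. The Ahrr region, chr13:74245646-74245821, lay inside the gene, had no HIF1A peak in any list, and had ARNT scores of 7.63 and 10.1, a mean rank of 32.5. Nqo1, a quinone reductase induced through AHR and through NRF2, was the other of the 2 AHR targets with a member among 10, with scores of 8.54 and 13.9 and a centre 71 bp from the annotated start. Those 2 are 20% of the AHR targets, the highest share of all the lists, against 4.48% of all genes. The other 8 AHR targets had none, and no interval or test was made for this list. Arnt, Hif1a, Epas1, Ahr and Arnt2 had none: Hif1a and Epas1 had co-bound regions, Arnt had HIF1A 4% O2 and ARNT 20% O2 regions, and none of the 8 lists gave a peak at Ahr or Arnt2.

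Lists tied to the hypoxic response had 0 to 2 genes each with a member, too few to set any of them apart from the 4.48% of all genes; a co-bound region was present at 17.0% of all genes. In the glycolysis list 1 of 26 genes had a member and 18 had a co-bound region, and in the oxygen sensing list 0 of 15 did and 9 were co-bound. The glycolytic gene was Pfkp, the platelet isoform of phosphofructokinase, with ARNT scores of 19.0 and 24.2 and a co-bound region as well. The list of mitochondrial and mitophagy genes had Bnip3l alone of 14, with 10 co-bound, Bnip3l among them. No gene had a member among 18 HIF2A targets, 23 activity and NPAS4-type genes, 19 vascular and iron genes or 12 collagen enzymes, of which 8, 10, 7 and 6 had a co-bound region. Among JmjC genes, which encode oxygen-dependent demethylases, 2 of 18 had a member, Kdm5a (scores of 19.2 and 7.73) and Kdm6b (30.8 and 11.4), and 10 were co-bound. The region counted for Kdm6b lay outside that gene, over an end of Cyb5d1, and held peaks of both HIF1A 4% O2 lists at separate positions. Kdm6b also had a co-bound region.

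Sterol and protein-folding genes had the most members by count among the 21 lists. In cholesterol synthesis 4 of 21 genes had a member, each with a HIF1A peak in 1 list. Hmgcs1 was described above, and Srebf2, the transcription factor that drives the pathway, had scores of 17.8 and 6.89. Fdps and Idi1, enzymes of isoprenoid synthesis, had scores of 2.94 and 10.5 and of 6.67 and 2.01, so that these regions ranked low in at least 1 list. In the unfolded protein and stress list 3 of 23 genes had a member: Hsph1, Sel1l, which acts in ER-associated degradation (scores of 16.3 and 15.4), and Ppp1r15a, which encodes the eIF2alpha phosphatase subunit GADD34 (8.31 and 9.32). Those counts are small, at 19.0% of the cholesterol list and 13.0% of the unfolded protein and stress list, against 4.48% of all genes. No interval or test was made for these lists. Fdps, Hsph1 and Ppp1r15a also had a co-bound region, and Hmgcs1, Srebf2, Idi1 and Sel1l had none.

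The remaining lists stayed near the share of all genes. The clock list had 2 of 22, Per2 and the D-box repressor Nfil3, whose scores were 3.72 and 3.90. Ion channels had 2 of 33, the calcium channel genes Cacna1c (scores of 13.5 and 12.8) and Cacna1a (4.69 and 4.51), and ribosomal proteins had 2 of 50, Rpl17 and Rpl11. Sympathoadrenal genes had Gata2 alone of 20 (scores of 19.5 and 21.1), and synaptic vesicle genes had Syn3 alone of 27, whose region held no HIF1A peak (8.31 and 18.5). Ribosome biogenesis had Nop2 of 24, lysosome had Mcoln1 of 24 (scores of 23.5 and 10.8), oxidative phosphorylation had Cox5b of 39, and genes of other tissues had 0 of 32. Of the genes named for these lists, Per2, Nfil3, Cacna1c and Gata2 also had a co-bound region. Cacna1a and Rpl11 had a HIF1A 4% O2 region and no co-bound region, and the rest had neither.

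Letters under the regions were compared in promoter windows, which run from 250 bases before to 50 after an annotated start. A window overlapped 65 of the 138 regions without any HIF1A peak, 368 of the 815 with a peak in 1 list and 1466 co-bound regions, and the background is all 21045 windows of protein-coding genes. The motif ACGTG, searched on both strands and held also by the E-box CACGTG, was in 14 of 65 windows without any HIF1A peak (21.5%, 13.3 to 33.0), in 121 of 368 with a peak in 1 list (32.9%, 28.3 to 37.8) and in 805 of 1466 co-bound windows (54.9%, 52.4 to 57.4), against 21.1% of all windows. In co-bound regions with a mean rank below 50 the share was 43.8% (39.03 to 48.7), and in members below that rank 30.6% (25.7 to 36.0). Counted only inside the region, the shares were 16.9% without any HIF1A peak, 29.3% with a peak in 1 list and 53.9% co-bound. The mean lengths searched there were 174.7, 186.3 and 226.1 bases, and their part in these shares was not tested.

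The other motifs had wide intervals in the 65 windows without any HIF1A peak. GCGTG, the second form of the hypoxia core and the core read by AHR with ARNT, was in 47.7% (36.0 to 59.6) of windows without any HIF1A peak, 62.8% with a peak in 1 list, 72.0% of co-bound windows and 38.8% of all windows. The E-box CACGTG was in 6.15% (2.42 to 14.8), 15.8%, 19.2% and 7.91% of the same sets. TGACG, an arm of the cAMP response element, was in 23.1%, 41.3%, 42.3% and 23.8%, and TCGTG, a core bound by NPAS4 with ARNT, in 17 of 65 (26.2%), 92 of 368, 27.4% and 17.6%. The GC box GGGCGG was in 72.3%, 70.7%, 78.0% and 46.7%, and TGANTCA, the AP-1 element, in 7.69%, 4.62%, 4.37% and 7.04%. Mean GC content was 59.9%, 62.6%, 63.6% and 56.4%, and its part in these shares was not tested. A match describes letters and shows no binding.

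GTTGCC and CCAAT, the box bound by NF-Y, were counted after the printed sequences had been seen, so their shares in these windows are a description that cannot support itself. GTTGCC was in 24 of 65 windows without any HIF1A peak (36.9%, 26.2 to 49.1), 16.0% (12.6 to 20.1) with a peak in 1 list, 13.8% (12.1 to 15.6) of co-bound windows and 12.3% of all windows. Among windows without any HIF1A peak the share was 9 of 22 at mean ranks of 50 and above and 15 of 43 below, and 7 of 22 with and 17 of 43 without an ARNT 20% O2 peak. CCAAT was in 39 of 65 (47.9 to 71.0%), 45.7%, 42.4% and 38.5% of the 4 sets, and in 77.3% (56.6 to 89.9) of the 22 windows without a HIF1A peak but with a peak of ARNT 20% O2 replicate 1, against 22 of 43 (51.2%, 36.8 to 65.4) with no ARNT 20% O2 peak, where the intervals overlap.

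**Figure D5:**
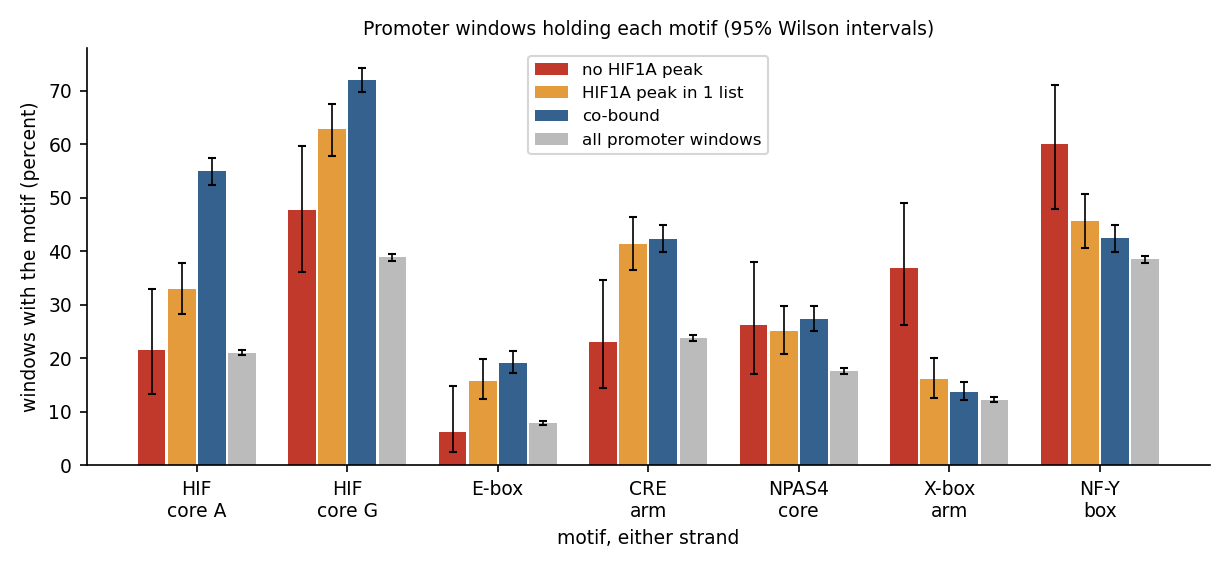
The share of promoter windows holding each motif on either strand (vertical axis, percent) for the 3 classes of ARNT 4% O2 regions and all protein-coding promoter windows; error bars are 95% Wilson intervals over windows. HIF core A was in 21.5%, 32.9%, 54.9% and 21.1% of the 4 sets, and the X-box arm in 36.9%, 16.0%, 13.8% and 12.3%, with overlapping intervals for the X-box arm in the 1-list and co-bound sets.

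Ciliary genes were counted by the prefixes of their symbols after their names had been seen, again as a description. Of 100 such genes, among them the Cfap, Ift, Bbs, Dnah and Rsph families, 17 had a member (17.0%, 10.9 to 25.5) and 8 had a region without any HIF1A peak, against 4.48% and 0.661% of all genes. Those 8 were Cfap44, Cfap54, Cfap58, Cplane2, Dnal4, Dync2li1, Rsph14 and Tctn2. The Rsph14 region, for a radial spoke gene, had a mean rank of 67.7, that of Cplane2, a ciliogenesis effector, 56.2, and that of Cfap58 47.0. The 9 with a HIF1A peak in 1 list were Cfap36, Cfap45, Cfap97, Cfap410, Dnah1, Dnah17, Ift88, Rsph1 and Rsph3b. Co-bound regions were present at 22 of the 100 genes (22.0%), against 17.0% of all genes, so HIF1A was not missing from the family. GTTGCC was in 38 of 94 windows of these genes (40.4%) whether bound or not. By class, it was in 4 of 6 of their windows without any HIF1A peak, 2 of 5 with a peak in 1 list and 6 of 8 co-bound. Outside the family it was in 20 of 59 windows without any HIF1A peak (33.9%, 23.1 to 46.6).

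A list of 33 mitotic genes, written in the same way, had 5 with a member: Bub1, Ccnb1 and Cdc20, without any HIF1A peak, and Aurkb and Kif11, with a HIF1A peak in 1 list. Cdc20, the activator of the anaphase-promoting complex, had a region of mean rank 62.4, and Ccnb1, cyclin B1, of 59.8. Those 5 are 15.2% (6.65 to 30.9), against 4.48% of all genes, and 14 of 33 (42.4%, 27.2 to 59.2) had an ARNT 20% O2 region, against 5.52% of all genes. CCAAT was in 23 of the 29 windows of the list (79.3%), against 38.5% of all windows.

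The number of these regions changed with the lists used: they numbered 154 without HIF1A 4% O2 replicate 2, 2948 and 12964 without ARNT 4% O2 replicate 1 and replicate 2, 1022 without HIF1A 4% O2 replicate 1, 961 and 770 without ARNT 20% O2 replicate 1 and replicate 2, 308 when the higher-scored peaks of each list alone were used, and 68 when every list was trimmed to 1808 peaks. Counts of reads are not in the lists, so a HIF1A signal below the caller's threshold cannot be told apart from none.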

How the data were processed

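The submitters' processing notes name BWA, Picard and MACS2 and the build mm10, and neither versions nor settings are given there. The authors called peaks for each of the 8 ChIP samples against an input, per the file headers and the sample names in the deposited files. For each peak they deposited a position and a score, on a scale that no header names. Both HIF1A replicate 2 lists hold 1 bp positions, and per the series' design text these samples combine sequencing runs. The lists hold no counts, so depth is unknown.

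Regions were merged and compared in Python 3.11.15 (pandas 2.3.3, numpy 2.4.6) with a 1 bp overlap. Ranks are percentiles of the score within a list. Shares carry 95% Wilson intervals (scipy 1.17.1), which count regions and hold no spread between samples. Genes, promoter windows and sequences came from RefSeq tables of GRCm38.p6, which is mm10: 492 of 493 entries in 21 gene lists matched by symbol, and 17274 of 21631 protein-coding genes had a start. Members and lists were chosen with earlier results of these data known. Genes were named by mean rank over both ARNT 4% O2 lists: the 15 highest without any HIF1A peak, the 10 highest with a peak in 1 list, the 10 highest within 1 kb of a gene end, up to 4 per gene list, and Arnt, Hif1a, Epas1, Ahr and Arnt2. A gene that this rule takes is not reported here. The region classes were checked on simulated intervals. No test across samples was made, since each value rests on 1 or 2 lists. Alternatives changed the overlap, the list lengths, the rules for absence, the distances and the lists used.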

Additional observations from a re-analysis of the deposited data

How the results depend on the processing

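No paired analysis was possible because the results are counts and shares of regions that come from no test. An overlap of 50% of the shorter interval, 1 bp positions widened by 100 bp, and HIF1A 4% O2 and ARNT 20% O2 regions widened by 500 bp gave 900, 956 and 879 members in place of 968, and the other summary values stayed close as well. With the higher-scored peaks of each list alone (the upper 50%), there were 308 members, 68 of them without any HIF1A peak, 16.2% had a HIF1A 20% O2 peak in either list (21.4% before), 53.4% lay within 1 kb of a gene end, 297 genes and 13 listed genes had a member, and the median mean rank was 67.7. With 1808 peaks from every list there were 68 members and 20 without any HIF1A peak, with 16.2%, 48.5%, 65 genes, 3 listed genes and a rank of 91.5, and ACGTG was in 50% of windows (32.6 to 67.4). Excluding any region with a HIF1A 4% O2 peak in either list left 138 members, 5.80% with a HIF1A 20% O2 peak, 62.0% near a gene end, 143 genes and 2 listed genes, with ACGTG in 21.5% of windows. Excluding any ARNT 20% O2 peak left 763 members, 83 of them without any HIF1A peak, and 18.1% with a HIF1A 20% O2 peak. Within 5 kb and 20 kb of a gene end lay 67.1% and 82.6%, and 43 listed genes had a member within 20 kb.

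Leaving out 1 list at a time, so that the remaining list alone gave that group's regions, moved the member count between 154 (without HIF1A 4% O2 replicate 2) and 12964 (without ARNT 4% O2 replicate 2). It moved members without any HIF1A peak between 83 (without ARNT 20% O2 replicate 2) and 2994, the share with a HIF1A 20% O2 peak between 5.84% and 22.3%, the share near a gene end between 21.9% (without ARNT 4% O2 replicate 2) and 62.7%, genes with a member between 158 and 5788, listed genes between 2 and 183, and windows with ACGTG between 22.1% and 33.1%. The cause was not tested. The lists carry no read counts, so depth is unknown and its part in what was called absent was not tested.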
